A study of Mus musculus with 3 samples.

Results

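The MHC class II and B-lineage genes were examined in mouse liver through 11 probe sets of 8 genes, chosen by probe set ID. The class II genes were H2-Aa and H2-Ab1, with 2 probe sets each, and H2-Eb1, H2-DMa and Cd74, with 1 each. Jchain and Ighm, with 1 and 2 probe sets, stood for the B lineage, and Cd52, with 1, for lymphocytes more widely. All 11 had a value on every array, out of 19824 probe sets in the deposited ratio table without the manufacturer's controls. The platform annotation gave each of the 11 the gene named here.

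Liver RNA of female BALB/c mice was hybridized to 3 one-colour Affymetrix arrays, 1 per group, on which short oligonucleotide probe sets read the genes. Values in threes below are in the order young control, old control, old Chlorella. Young control mice were 10 weeks old and ate normal food, old control mice were 50 weeks old on the same food, and old Chlorella mice were 50 weeks old and ate food with 2.0% powder of the green alga Chlorella. RNA of 6 mice was pooled for each array, so variation between mice was not measured and no p-value can be given for any difference. Ovalbumin sensitization is named in the title of the series and in no sample label, so whether these mice had been sensitized is not known here.

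MHC class II molecules are pairs of an alpha and a beta chain that show peptides from engulfed proteins to CD4+ T cells. B cells, dendritic cells and macrophages, including the Kupffer cells of the liver, carry them, whereas hepatocytes normally carry little. The chains are held by the invariant chain Cd74 until H2-DM loads a peptide, and the transactivator Ciita drives the genes together through shared promoter boxes. B cells carry IgM, whose heavy chain is encoded by Ighm, and plasma cells secrete it as pentamers joined by the J chain. BALB/c mice have the H2 d haplotype and make both I-A (H2-Aa with H2-Ab1) and I-E (H2-Ea with H2-Eb1), whereas the reference strain C57BL/6J has the b haplotype and lacks I-E.

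The promoters of 2 class II genes and of Jchain are shown as examples of both kinds of gene, the shared class II boxes being known to lie in such windows. They are RefSeq sequences of build GRCm38.p6 from the C57BL/6J reference, each running from 250 bases before the start of the gene to 50 after it. H2-Aa lies at chr17:34287774-34288073 on the minus strand, H2-Eb1 at chr17:34305617-34305916 on the plus strand and Jchain at chr5:88527848-88528147 on the minus strand. Capitals mark matches, on either strand, to the Y box CTGATTGG, the pentamer CCAAT and the octamer TGACGTCA. The Y box letters contain the pentamer on the opposite strand, so these matches overlap.
H2-Aa: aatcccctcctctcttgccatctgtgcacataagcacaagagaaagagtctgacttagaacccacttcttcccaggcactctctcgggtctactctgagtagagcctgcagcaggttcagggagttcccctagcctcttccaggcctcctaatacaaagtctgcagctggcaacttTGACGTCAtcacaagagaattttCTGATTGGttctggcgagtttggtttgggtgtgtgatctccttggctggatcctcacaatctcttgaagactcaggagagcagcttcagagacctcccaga
H2-Eb1: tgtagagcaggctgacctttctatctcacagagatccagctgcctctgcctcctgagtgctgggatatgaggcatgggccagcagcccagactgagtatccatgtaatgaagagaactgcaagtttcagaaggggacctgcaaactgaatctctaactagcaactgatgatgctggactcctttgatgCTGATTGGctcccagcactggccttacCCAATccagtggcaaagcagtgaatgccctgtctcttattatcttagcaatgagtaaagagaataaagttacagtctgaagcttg
Jchain: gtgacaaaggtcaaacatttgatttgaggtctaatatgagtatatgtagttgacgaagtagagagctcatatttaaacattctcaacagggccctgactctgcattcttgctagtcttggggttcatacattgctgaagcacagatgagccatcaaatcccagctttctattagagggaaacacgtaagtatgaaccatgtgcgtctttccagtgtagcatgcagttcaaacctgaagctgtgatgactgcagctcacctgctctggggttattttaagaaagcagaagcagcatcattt

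The Y box began 51 bases before the start of H2-Aa and 62 bases before that of H2-Eb1. It was found in 4.1% of 32851 mouse promoters of the same length. H2-Aa also held the octamer TGACGTCA, 74 bases before its start, which was added to the search after the sequence had been read and which 1.79% of promoters held. The H2-Eb1 window held a further CCAAT 35 bases before the start, a pentamer present in 37.4% of promoters. None of the 3 motifs was in the Jchain window. Of the 8 member genes, 4 had a promoter in the table used, H2-DMa with 2 windows. The window of H2-DMa with the lower coordinates held none of the motifs, and the other held a single CCAAT, 198 bases before its start. Further genes of class II antigen presentation were searched too. H2-Oa and H2-Eb2 held the Y box, and H2-DMb1, H2-DMb2, H2-Ob, Ctss and Ifi30 did not. A longer pattern, the X box of class II promoters, was also searched for, and its result is not given here.

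The first comparison asked how these genes differed with age in mice on normal food. All 11 probe sets were higher in the old than in the young control, by 0.85 to 2.62 on the log2 scale with a median of 1.37. Of the 11, 9 were at least 2-fold higher in old control, where 9.55% of the 16667 probe sets measured on both arrays were, and none of the 11 was 2-fold lower, where 8.8% were. Over all probe sets the median was -0.114, and the middle 50% lay between -0.567 and 0.428. H2-DMa and Cd74 were the 2 members that stayed under 2-fold.

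H2-Aa encodes the alpha chain of I-A. Its probe set 1435290_x_at had a log2 signal of 10.56 in young control, 11.64 in old control and 11.51 in old Chlorella. On 1438858_x_at the log2 signals were 8.41, 10.21 and 10.73. Both probe sets were lowest in young control, but the first was highest in old control and the second in old Chlorella. The age difference, old control minus young control, was 1.08 (2.12-fold) for the first and 1.80 (3.49-fold) for the second. A further H2-Aa probe set outside the 11, 1452431_s_at, gave 10.15, 11.31 and 11.23, an age difference of 1.17 that was close to that of 1435290_x_at. IDs that end in _x_at or _s_at can share probes with other transcripts, which holds for all 3.

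H2-Ab1 encodes the beta chain of I-A, the partner of H2-Aa. The log2 signals of 1450648_s_at were 9.91 in young control, 11.01 in old control and 10.89 in old Chlorella. Those of 1451721_a_at were 9.23, 10.60 and 10.41. The age differences were 1.11 (2.15-fold) and 1.37 (2.59-fold), and in both probe sets old Chlorella lay between the controls and near old control. A probe set of the same gene outside the 11, 1425477_x_at, was 2.83-fold higher by age, and its log2 signals were 10.50 in old control and 10.24 in old Chlorella.

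H2-Eb1 encodes the beta chain of I-E. Probe set 1417025_at had log2 signals of 10.42 in young control, 11.54 in old control and 11.57 in old Chlorella, an age difference of 1.12 (2.18-fold). The old arrays lay close together, and young control lay below both. The alpha chain of I-E, H2-Ea, was read by 2 probe sets of the class II list. H2-Ea was at 9.42, 11.12 and 11.03 on 1422891_at and at 10.47, 12.28 and 12.10 on 1422892_s_at, in the same order. Its age differences were 1.70 and 1.81.

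Cd74 and H2-DMa act after synthesis of the chains, as chaperone and as peptide loader. Cd74 (1425519_a_at) had log2 signals of 11.22, 12.07 and 12.13. H2-DMa (1422527_at) had 7.89, 8.74 and 8.79. These age differences, 0.86 (1.82-fold) for Cd74 and 0.85 (1.81-fold) for H2-DMa, were the smallest of the 11, and 12.3% and 12.4% of all probe sets differed upward by more. A further H2-DMa probe set, 1459872_x_at, which the ratio table does not list, went the other way in the series matrix with log2 signals of 7.29, 6.92 and 6.06. The 2 probe sets of H2-DMa thus disagreed.

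Jchain had the largest age difference of the 11. Probe set 1424305_at had linear signals of 375 on the young control array, 2305 on the old control array and 2916 on the old Chlorella array. Its log2 signals were 8.55, 11.17 and 11.51, and the age difference was 2.62 (6.15-fold). Only 0.192% of all probe sets differed upward by more. Old Chlorella was the highest of the 3 arrays and young control far below both old arrays.

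Ighm encodes the heavy chain of IgM. Probe set 1427329_a_at had log2 signals of 9.51 in young control, 11.53 in old control and 11.16 in old Chlorella. Probe set 1427351_s_at had 10.42, 12.34 and 12.32. The age differences were 2.02 (4.07-fold) and 1.92 (3.78-fold), which 1.03% and 1.37% of all probe sets exceeded. The 2 probe sets gave nearly the same age difference and differed in the diet difference.

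Cd52 encodes a small lipid-anchored glycoprotein on the surface of lymphocytes and some myeloid cells. Its log2 signals on 1460218_at were 8.81 in young control, 10.37 in old control and 10.26 in old Chlorella. Its age difference was 1.56 (2.95-fold), between those of most class II probe sets and those of Ighm. With IgM and the J chain at 1.92 to 2.62, the B-lineage probe sets among the 11 lay above the class II probe sets among them, which ran from 0.85 to 1.80. The order does not extend beyond the 11: H2-Ob was at 2.10, H2-Ea at 1.81 on 1422892_s_at and Ighm at 0.69 on 1452535_at. With quantile normalized ratios H2-Aa on 1438858_x_at (1.37) lay above Ighm on 1427351_s_at (1.33). This order was not tested, since each value comes from the same pair of arrays.

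**Figure D1:**
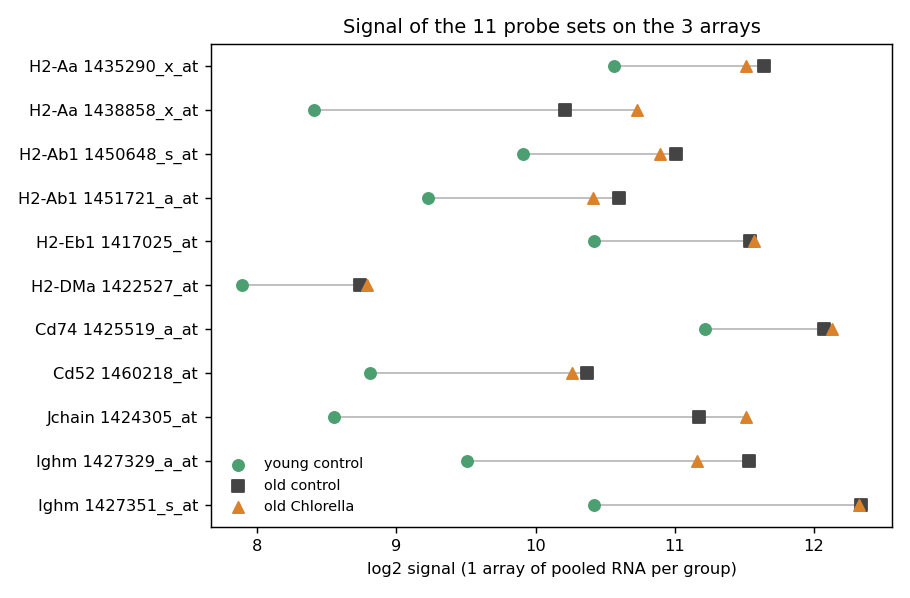
Log2 signal of each of the 11 probe sets (rows) on the young control array (circles), the old control array (squares) and the old Chlorella array (triangles), 1 array of pooled RNA per group and therefore no error bars. Young control is the lowest of the 3 in every row, and the old arrays lie close together in most rows; signals are to be compared within a row only.

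**Figure D2:**
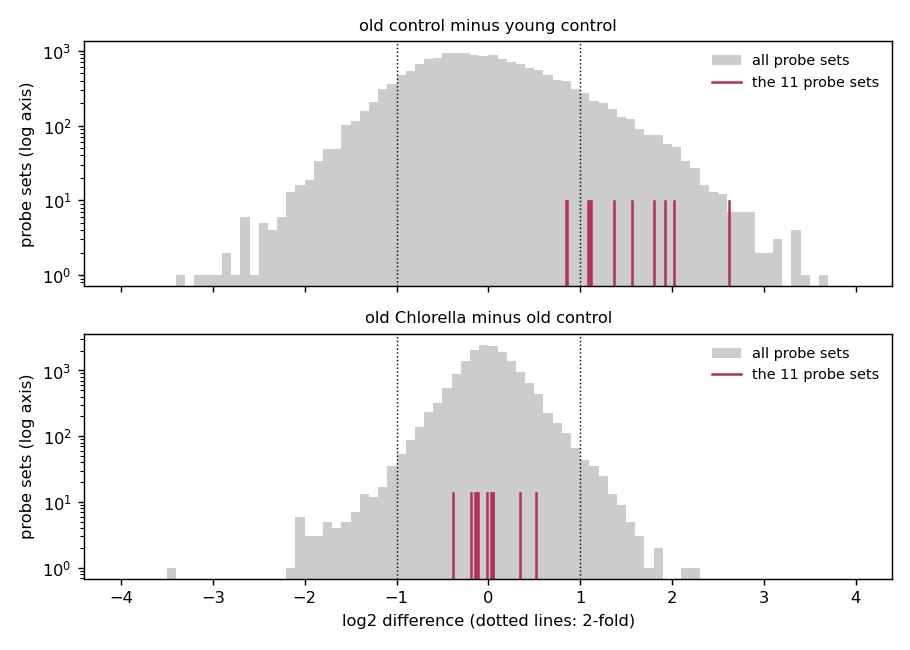
Number of probe sets (log axis) by log2 difference, for old control minus young control (above) and old Chlorella minus old control (below), with the 11 probe sets as red lines and 2-fold as dotted lines. The red lines lie between 0.85 and 2.62 by age and between -0.38 and 0.52 by diet.

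These values depend on how the arrays are scaled to each other. The young array was the one that differed most over the whole table: over probe sets with 3 values, the age difference had an SD of 0.78 and the diet difference one of 0.337. The median age difference of the bacterial controls was 0.455 for those of hybridization and 0.749 for those with poly-A tails. Setting these to 0 moves every age difference down by that much and brings the median of all probe sets to -0.57 or -0.863. All 11 probe sets stayed higher in old control under all 4 other scalings, but H2-DMa, the lowest, was at 0.10 with the poly-A controls at 0. With the hybridization controls at 0, 5 of 11 were at least 2-fold higher, where 3.93% of all probe sets were higher and 26.2% lower. With the poly-A controls at 0, 4 of 11 were, where 2.14% were higher and 42.4% lower. With quantile normalized ratios, 6 of 11 were, where 6.02% were. At 1.5-fold all 11 were higher, where 19.6% of all probe sets were, and at 3-fold 4 of 11, where 3.04% were. Without IDs in _x_at or _s_at it was 5 of 7, where 9.11% were. Jchain, both Ighm probe sets and 1438858_x_at of H2-Aa passed 2-fold under all 5 scalings. Whether the scaling of the young array had a part in the size of these differences was not tested.

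**Figure D3:**
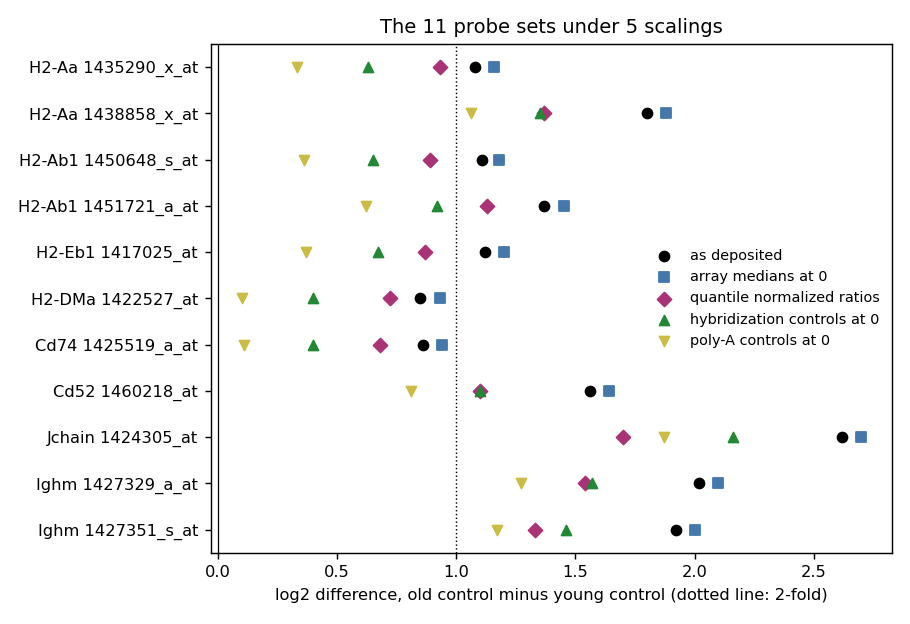
Log2 difference of old control minus young control for the 11 probe sets (rows) as deposited and under 4 other scalings of the arrays (symbols), with 2-fold as a dotted line. All values lie above 0, from 0.10 for H2-DMa with the poly-A controls at 0 to 2.70 for Jchain with array medians at 0.

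The class II list of 14 genes holds the members and their partners in antigen presentation. Of its 15 probe sets measured on both control arrays, 10 were at least 2-fold higher in old control and none lower, and the median was 1.12. The count became 6 with quantile normalized ratios (median 0.91), 5 with the hybridization controls at 0 (0.67) and 3 with the poly-A controls at 0 (0.37), still with none lower. Leaving the 7 members aside, 5 of 8 were higher by 2-fold, with a median of 1.33. H2-Ob, the beta chain of H2-DO, which restrains H2-DM in B cells, was at a log2 signal of 4.74 in young control, 6.84 in old control and 6.55 in old Chlorella. Its young value lies below the 40th percentile of that array (5.37), so its age difference of 2.10 rests on a weak signal. H2-DMb2, a beta chain of H2-DM, differed by 0.99 between the controls. Ctss, the protease that trims Cd74, differed by 0.81, and Ifi30, a reductase that opens disulfide bonds of antigens, by 0.62, which turned to -0.13 with the poly-A controls at 0. Ciita, the transactivator of the class II genes, has no probe set in the ratio table.

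The class I list did not move with the class II list. Class I molecules show peptides made inside the cell and stand on nearly all cells, hepatocytes included. Of 22 class I probe sets measured by age, none was 2-fold higher and 1, for H2-K1 (1427746_x_at, -1.08), was lower. The median was -0.23, and 7 of the 22 were positive. H2-K1 gave -0.51 on 1425336_x_at, -0.06 on 1450534_x_at and -0.24 on 1451931_x_at. Most of the 22 were probe sets of H2-D1 or H2-K1. Of these, all but 1426324_at of H2-D1 end in _x_at and can share probes with other transcripts. H2-D1 was positive only on 1426324_at (0.48). The other positive values were those of Nlrc5 (0.61), Psmb9 (0.54), Psmb8 (0.44 and 0.12) and B2m (0.21 and 0.21). No class I value stayed positive with the poly-A controls at 0. With the poly-A controls at 0, 9 of the 22 were lower, where 42.4% of all probe sets were. With quantile normalized ratios none was, where 5.21% were. The difference between the lists was not tested. Several class I and class II genes are neighbours in the mouse genome, and their values were set in chromosomal order. This was chosen after the values had been seen. Between H2-DMb2 and H2-Ob lie Psmb9, Tap1, Psmb8 and Tap2, which cut and carry peptides for class I. Psmb9 differed by 0.54 between the controls, Tap1 by -0.46 and Psmb8 by 0.12 on 1422962_a_at and 0.44 on 1444619_x_at, and the positive values turned negative with the poly-A controls at 0. Tap2 had no ratio for old control. On one side of this run H2-DMa and H2-DMb2 stood at 0.85 and 0.99, and on the other H2-Ob, H2-Ab1, H2-Aa, H2-Eb1 and H2-Ea at 1.08 to 2.10.

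**Figure D4:**
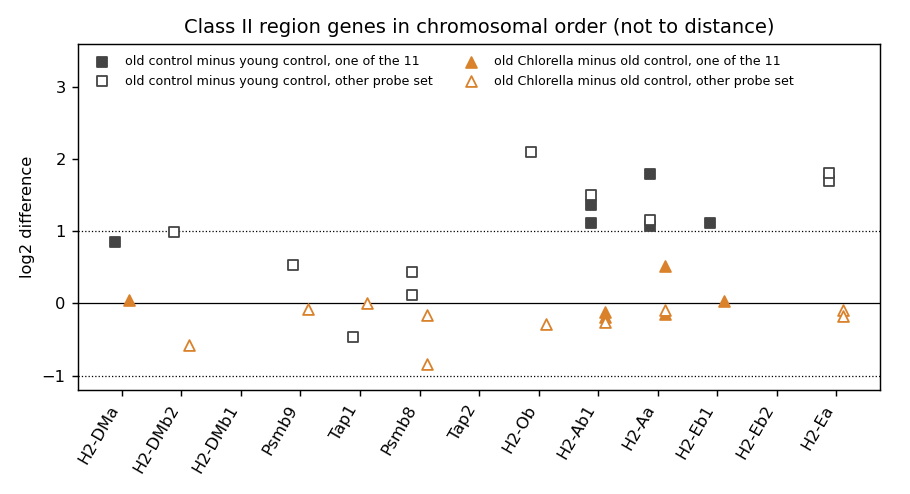
Log2 differences of the probe sets of genes from H2-DMa to H2-Ea, in chromosomal order and not to distance, for old control minus young control (squares) and old Chlorella minus old control (triangles), with the 11 probe sets filled. The class II genes stand at 0.85 to 2.10 by age with Psmb9, Tap1 and Psmb8 between -0.46 and 0.54; genes with no symbol have no ratio for at least 1 of the arrays compared.

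Markers of B cells were examined beside Ighm and Jchain. Of 10 probe sets of the B-cell list measured by age, 8 were at least 2-fold higher in old control, none lower, with a median of 1.84, and 6 of the 8 without Ighm of the 11 were higher. Ms4a1, the B-cell surface protein CD20, was at log2 signals of 5.82, 9.12 and 8.43 on 1450912_at and 6.68, 9.58 and 9.20 on 1423226_at. Its age differences of 3.30 and 2.91 were above that of Jchain. Cd79b, a signalling chain of the B-cell receptor, was at 6.96, 9.17 and 9.06, an age difference of 2.22. Cd22, which dampens that receptor, differed by 1.75 between the controls, Fcmr, a receptor for IgM, by 1.27, and Bank1, a B-cell adaptor, by 1.03. Cxcl13, which draws B cells into lymphoid tissue, gave 1.06 on 1417851_at and 0.50 on 1448859_at, the second turning to -0.25 with the poly-A controls at 0. Cxcl13 is not in the B-cell list but in that of lymphoid chemokines and their receptors. There 2 of 5 probe sets were 2-fold higher, where 9.55% of all were, and 3 were positive. Cxcl12 in that list was at -0.38 and -0.27. With quantile normalized ratios 0 of 4 in it passed 2-fold. Of 39 B-cell probe sets on the array, 15 are in the ratio table, and Pax5, Ebf1, Cr2 and Fcer2a have none there.

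The plasma-cell list gave values in both directions. Mzb1, a chaperone of antibody secretion, was at log2 signals of 7.50, 9.05 and 9.25, an age difference of 1.54. Jchain and Mzb1 were the 2 of 13 plasma-cell probe sets past 2-fold upward, and the list's median was -0.43. Its 4 probe sets of Sdc1 and 4 of Xbp1 were all lower in old control, by 0.24 to 0.95 in size, and hepatocytes express both genes. Igha, the heavy chain of IgA, is in the list, and its 3 probe sets lack a ratio on at least 1 array. Igha on 1421653_a_at, one of the 13, differed by -0.13 between the controls, or by -0.88 with the poly-A controls at 0.

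Markers of other blood cells also differed with age, and their part in the class II values was not tested. In tissue RNA, more cells of a type and more RNA per cell cannot be told apart. Of 20 probe sets for macrophages and Kupffer cells, 16 were higher in old control and 4 by 2-fold, with a median of 0.65 that became -0.1 with the poly-A controls at 0. The 2 largest were Vsig4, a complement receptor of Kupffer cells (1.82), and Lyz2, lysozyme of myeloid cells (1.82). The summed linear signal of the list was 51760 in young control, 84470 in old control and 83990 in old Chlorella. For B cells the sums were 3460, 12390 and 10800 and for the class II list 16370, 35860 and 34330. Expressed as a ratio of old control to young control, these sums were 1.63-fold for macrophages and Kupffer cells, 3.58-fold for B cells and 2.19-fold for class II, beside 1.20-fold for all probe sets of the ratio table. The sums take in every listed probe set of the ratio table, also those that lack a ratio on an array, and the 2 Ighm members made up most of the B-cell sum. Without the members the sums were 1360, 4232 and 3391 for B cells (3.11-fold) and 8978, 20150 and 18510 for class II (2.24-fold). For T and NK cells the sums were 852, 2103 and 1785 (2.47-fold), with 2 of 4 measured probe sets 2-fold higher in old control. Cd4, Cd3e and Cd2 have no probe set in the ratio table. For dendritic cells the sums were 15380, 21880 and 19070 (1.42-fold). None of 4 measured dendritic-cell probe sets passed 2-fold, with a median of 0.09 and 2 of 4 positive. Cst3, which many cell types express, made up most of that sum and differed by 0.69, or -0.06 with the poly-A controls at 0; Itgax, Flt3 and Xcr1 are not in the ratio table. All 3 measured neutrophil probe sets were 2-fold higher in old control, and the sums were 890, 6489 and 10300. The neutrophil sum was 7.29-fold in old control over young control, above that of B cells. S100a8 and S100a9 made up nearly all of that sum. Only 3 of the 8 neutrophil probe sets are in the ratio table, and Mpo, Elane, Camp, Ltf and Csf3r have none there. S100a8 differed by 3.15 by age and 0.66 by diet, S100a9 by 2.85 and 0.70, and Ngp by 1.02 and 0.23. Among leukocyte genes in general, 8 of 19 were 2-fold higher and none lower in old control, or 7 of 18 without the member Cd52, led by Tyrobp, an adaptor of myeloid and NK receptors (2.09), and Cd48, a surface protein of most leukocytes (1.66). The summed signal of that list was 1.97-fold in old control over young control. For that list the count was 5 with quantile normalized ratios, and 4 higher and 1 lower with the hybridization controls at 0. With the poly-A controls at 0 it was 1 higher and 2 lower, where 2.14% of all probe sets were higher and 42.4% lower. The list's median was then -0.08. With the poly-A controls at 0, 2 probe sets stayed 2-fold higher for macrophages and Kupffer cells, 2 for neutrophils, 1 for T and NK cells and 6 for B cells.

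Genes that interferon-gamma induces, class II among them through Ciita, were examined as a list of their own without class II. Of 10 such probe sets, none was 2-fold higher in old control and 1 was lower, for Igtp (-1.02), an immunity-related GTPase, with a median of -0.24. Igtp was no longer past 2-fold with quantile normalized ratios (-0.92) or with the array medians set to 0 (-0.94). With the poly-A controls at 0, 5 of the 10 were lower, where 42.4% of all probe sets were. Hepatocyte markers were present: the albumin probe set stood at log2 signals of 15.32, 15.79 and 15.71. Of 19 hepatocyte probe sets 6 were 2-fold lower in old control, or 3 with quantile normalized ratios, where 8.8% and 5.21% of all probe sets were. All 6 belonged to Hnf4a or Apob. In the same list 11 of 19 were higher in old control, with a median of 0.34 that became -0.4 with the poly-A controls at 0. The summed signals of the list were 588900, 699900 and 670100.

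**Figure D5:**
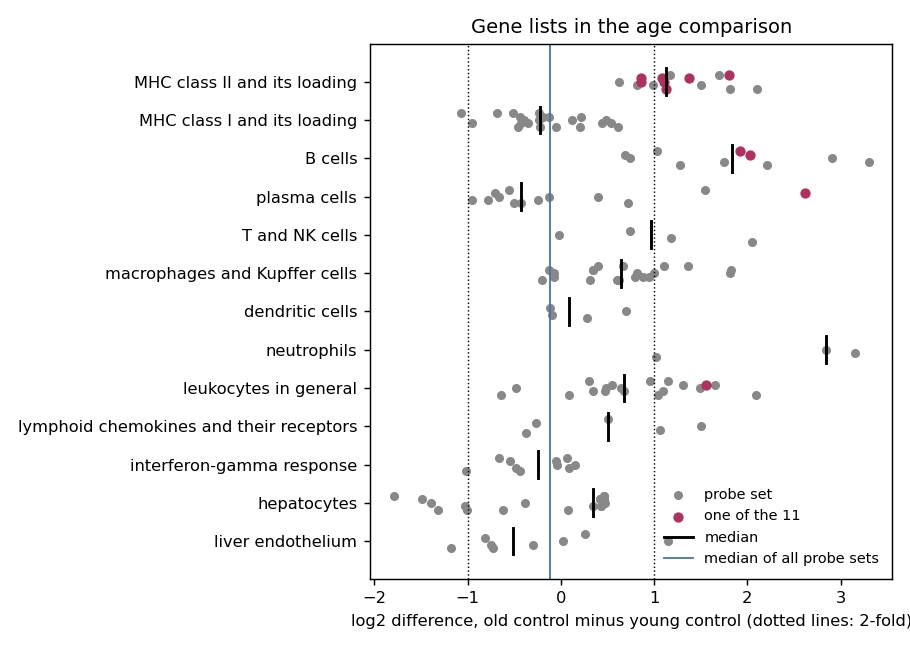
Log2 difference of old control minus young control for each probe set (points) of the 13 gene lists (rows), with the 11 probe sets in red, list medians as black bars, the median of all probe sets as a blue line and 2-fold as dotted lines. The median is 1.12 for the class II list and 1.84 for B cells, and -0.23 for the class I list.

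The second comparison asked what the Chlorella diet changed in these genes in 50-week-old mice. None of the 11 probe sets differed by 2-fold between old Chlorella and old control, where 0.841% of 16524 probe sets were higher and 0.678% lower. A count of 0 of 11 is near these shares and says nothing particular about the members. No member passed under the alternatives either, where the share of all probe sets past the threshold in either direction was 1.5% with array medians at 0, 5.19% with quantile normalized ratios, 1.89% with the hybridization controls and 3.37% with the poly-A controls at 0. It was 27.4% in the series matrix, 8.65% at 1.5-fold, 0.188% at 3-fold, 1.51% with the filter on signal and 1.53% without IDs in _x_at or _s_at. The differences, old Chlorella minus old control, ran from -0.38 to 0.52 with a median of -0.02, beside a median of 0.003 for all probe sets. Of the 11, 5 were higher and 6 lower in old Chlorella.

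The largest value was that of H2-Aa on 1438858_x_at, 0.52 (1.43-fold), but H2-Aa gave -0.14 on 1435290_x_at and -0.09 on 1452431_s_at. The probe sets of H2-Aa thus did not give the same direction. H2-Ab1 differed by -0.12 and -0.19, H2-Eb1 by 0.03, H2-DMa and Cd74 by 0.05 each and Cd52 by -0.11. Jchain was 0.34 higher in old Chlorella (1.26-fold), with 13.9% of all probe sets above it, and stayed positive under all 4 other scalings, from 0.33 to 0.66. Ighm was lower on 1427329_a_at, by -0.38, and at -0.02 on 1427351_s_at. The bacterial controls were lower on the old Chlorella array than on the old control array, so setting the poly-A controls to 0 raised all 11, and 10 were then positive.

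In the B-cell list none of 13 probe sets passed 2-fold by diet, the median was -0.38 and 3 were positive. With the hybridization controls at 0 the median was -0.23 and 5 were positive, and with the poly-A controls at 0 it was -0.06 and 6 were positive. The 3 positive as deposited were Ighm on 1452535_at (0.62), Blnk, a B-cell adaptor (0.33), and Fcrla, an Fc receptor-like protein of B cells (0.12). Of the others, named for their role after their values were seen, Ms4a1 differed by -0.68 and -0.38, Cd22 by -0.67, Fcmr by -0.63 and Cd79a, the partner of Cd79b, by -0.61. These kept their sign under the scalings that gave them a value; Cd79a has none with quantile normalized ratios. Cd79b differed by -0.11 and turned positive with either kind of bacterial control at 0, and Bank1 differed by -0.21, which turned to 0.11 with the poly-A controls at 0. Mzb1 was at 0.20 and Cxcl13 at 0.87 and 0.40, all positive under the other scalings too. The lists they come from were mixed by diet. The plasma-cell list had a median of -0.2 with 3 of 12 positive, or 0.12 with 9 positive with the poly-A controls at 0. The list of lymphoid chemokines and their receptors had a median of 0.2 with 2 of 4 positive. In the class II list none of 15 probe sets passed 2-fold, the median was -0.12 and 4 were positive. Its median was 0.03 with 9 positive with the hybridization controls at 0, and 0.2 with 14 positive with the poly-A controls at 0.

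The third comparison set old Chlorella against young control, with age and diet changed together. It shares an array with each of the others, so its values are not a separate measurement. All 11 probe sets were higher in old Chlorella than in young control, by 0.90 to 2.96 with a median of 1.18, and 7 of 11 by 2-fold, where 8.32% of 16572 probe sets were. With the poly-A controls at 0 it was 4 of 11, where 2.9% were, at 1.5-fold all 11, where 19.0% were, and at 3-fold 4 of 11, where 2.21% were. Jchain was 2.96 higher (7.78-fold), and 0.0603% of all probe sets differed upward by more. H2-Aa gave 2.32 on 1438858_x_at and 0.94 on 1435290_x_at, and H2-Ab1 1.18 on 1451721_a_at and 0.99 on 1450648_s_at. H2-Eb1 gave 1.16, Cd52 1.44, and Ighm 1.65 and 1.90. Cd74 gave 0.91 and H2-DMa 0.90. Those 2, H2-Aa on 1435290_x_at and H2-Ab1 on 1450648_s_at were the 4 members under 2-fold, and the last 2 had passed it by age.

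The pattern over the 3 arrays was also compared with that of all other probe sets that have 1 gene and 3 values. The measure was the Euclidean distance of the log2 ratios, each row centred on its mean, to the median of the 11. The nearest were Trappc13 (0.0164), Timm10 (0.0189), AW112010 (0.0211), Mgst3 (0.0221) and Pf4 (0.0247). With 3 arrays a pattern has few shapes, and 571 of 14303 such probe sets (3.99%) lay within 0.25 of this median. The 11 enter that median, so their own distances, from 0.113 for H2-Eb1 to 1.273 for Jchain, are a description only.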

How the data were processed

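The 3 arrays each hold pooled liver RNA of 1 group, per the series' design text and the labels. The deposited ratio table holds log2 ratios: per the file header, the numerator is an array's normalized value and the denominator the all-sample median. The middle of the 3 ratios was 0 within 0.001 in only 233 of 15735 rows, so that denominator is not the median of these 3 arrays, and which values it comes from is not known here; it cancels in differences between arrays. The deposited series matrix holds log2 signals of 45101 probe sets. The differences between arrays were the same in both tables within 0.002. MAS5 is named in the submitters' processing notes; the scaling of the arrays and the origin of empty cells were not given in the sources used here. Of the columns, Old in the ratio table was matched to old control, since Chlorella has a column of its own.

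Differences of log2 ratios were taken between 2 arrays over probe sets with both values, without 58 control probe sets, with Python 3.11.15, pandas 2.3.3 and numpy 2.4.6. The call was a difference of at least 1 (2-fold), with no test, since each group has 1 array. The 2-fold call and the quantile step were tested on simulated data with the spread between the old arrays. The wider spread of the young array was not simulated, and the other scalings, sums, distances and motif searches were not tested this way. Genes were named from the platform annotation, in which 34945 probe sets have 1 symbol, 932 several and 9160 none; only the first kind was named. The members and the 13 gene lists were chosen with earlier results of these data known. From each list and comparison, the 2 largest increases and the 2 largest decreases past 2-fold could be named, beside the members and the 5 nearest patterns; other list genes were named for their role, after their values were seen. Alternatives were 4 other scalings, the series matrix as source, thresholds of 1.5-fold and 3-fold, a filter at the 40th percentile of signal on at least 1 of the arrays compared, and leaving out IDs that end in _x_at or _s_at. The number of arrays limits the precision.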

Additional observations from a re-analysis of the deposited data

How the results depend on the processing

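With 1 array per group no array could be left out, and no paired analysis was possible because each group has a single array. By age, 9 of the 11 probe sets were 2-fold higher as deposited, 5 with the hybridization controls at 0, 4 with the poly-A controls at 0, 4 at a 3-fold threshold and 5 of 7 without IDs in _x_at or _s_at, where fewer were counted. In old Chlorella against young control the 7 became 4 with the poly-A controls at 0, 11 at 1.5-fold and 4 at 3-fold. By diet the count was 0 under the 9 alternatives. No value of the 11 that had passed 2-fold changed sign. Of 152 listed probe sets measured by age, 49 passed 2-fold (40 higher, 9 lower), where 18.3% of all probe sets did. The listed probe sets include the 11, here and in the counts that follow. The 9 members that were 2-fold higher by age are thus among the 40, and these counts are not separate from those of the members. With quantile normalized ratios 31 of 149 passed, where 11.2% did. In the series matrix, which holds more probe sets, 113 of 274 passed, where 37.8% did. At 1.5-fold 83 passed, where 43.8% did, and at 3-fold 19, where 4.39% did. With the hybridization controls at 0 the split became 23 higher and 23 lower, where 3.93% of all probe sets were higher and 26.2% lower. With the poly-A controls at 0 it was 16 and 38, where 2.14% were higher and 42.4% lower. By diet 1 listed probe set passed, Cxcl10 of the interferon-gamma list (1418930_at, 1.04), where 1.52% of all probe sets did. That list's median by diet was 0.09, with 6 of 10 positive. With quantile normalized ratios 9 of 149 listed probe sets passed, where 5.19% of all did. With the hybridization and poly-A controls at 0 it was 2 and 4, where 1.89% and 3.37% did. In the series matrix 46 of 274 passed, where 27.4% did. At 1.5-fold 19 passed, where 8.65% did, and at 3-fold 0, where 0.188% did. For old Chlorella against young control 43 passed, where 15.2% of all probe sets did, and 28 of 149 with quantile normalized ratios, where 9.81% did. In the series matrix 107 of 274 passed, where 36.6% did. At 1.5-fold it was 81, where 40.7% passed, and at 3-fold 19, where 2.99% did. Unless a value shows it, the cause of these changes was not tested.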

Other observations

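The annotation gives 13 further probe sets to the 8 genes, of which 6 are in the ratio table and 3 have a ratio on every array. Ighm has 9 of the 13. On 1452535_at Ighm was at log2 signals of 6.41, 7.10 and 7.72, an age difference of 0.69 that turned to -0.06 with the poly-A controls at 0. The Ighm probe sets 1451949_at (5.43, 2.95 and 2.82) and 1425385_a_at (4.68, 2.66 and 6.46) are not in the ratio table and were lower in the old than in the young control, where their old control signals lie below the 40th percentile of that array (5.71). Ighm on 1427870_x_at, also outside the ratio table, was above that percentile on all 3 arrays with 7.78, 8.76 and 6.39, and was highest in old control and lowest in old Chlorella. On 1425247_a_at, with ratios on 2 arrays, Ighm was at 6.96, 7.66 and 7.23. On H2-Aa 1443783_x_at was at 3.95, 3.43 and 5.13, below the 40th percentile on all 3 arrays.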
